A study of Rattus norvegicus with 47 samples.

Results

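The tumor necrosis factor (TNF) superfamily ligands and receptors were followed in whole blood of rats before and after stroke. They were 10 of the 20935 gene symbols on the array, 6 ligands (Tnfsf10, Tnfsf13, Tnfsf13b, Tnfsf14, Lta and Ltb) and 4 receptors (Tnfrsf1a, Tnfrsf1b, Fas and Cd40). They were chosen by gene symbol, and each had 1 probe set (the group of array probes that reads one gene) among 27596. The animals were 8 male spontaneously hypertensive rats (SHR) aged 16 weeks, a strain with inherited high blood pressure, in which the middle cerebral artery (MCA) was blocked for a limited time with a coated thread (MCA occlusion). Blood was taken at 0 h, before anesthesia, and at 1, 2, 3, 6 and 24 h post MCA occlusion. The samples gave 47 GeneChip RatGene 1.0 ST arrays, 8 per time point but 7 for the 6 h samples. A tail vein was the source of the samples from 0 h to 6 h. The 24 h samples came from a heart puncture after a terminal overdose of anesthetic. Sampling site and overdose thus differed at 24 h only, and cannot be told apart from time there. No rats without occlusion were among the samples, so that time, anesthesia, surgery and stroke cannot be told apart. Per the study's methods, blood flow was restored under a renewed anesthesia between the 1 h and 2 h samples, so that the later samples also followed reperfusion. The values are log2 signals after robust multi-array averaging (RMA), given as the authors' mean ± SD over the arrays of a time point. Where 6 values of a gene follow each other they are in the order 0, 1, 2, 3, 6 and 24 h, and 5 changes are in the order 1, 2, 3, 6 and 24 h.

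TNF superfamily ligands are mostly trimeric proteins at the cell surface or shed from it. Some of their receptors carry a death domain, which can recruit caspases and kill the cell (Tnfrsf1a, Fas and the Tnfsf10 receptor). Others without one bind TRAF adaptors, which activate NF-kappaB (Tnfrsf1b, Cd40, Ltbr). These routes are not exclusive, as Tnfrsf1a also drives inflammatory signals. In blood, neutrophils and monocytes carry both TNF receptors, while several other members (Cd40, the Tnfsf13b receptors, Cd27) belong to B and T cells and guide their survival and activation.

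The stretches just upstream of the transcription start are shown for 7 members, the 3 with the largest changes of a receptor (Fas, Tnfrsf1a and Tnfrsf1b), the ligand with the largest change (Tnfsf10) and the 3 ligands with a kappaB match (Tnfsf14, Ltb and Lta). The set was chosen with the matches known. They are from the RefSeq annotation of the rat assembly GRCr8, 250 bases each, written 5′ to 3′ on the gene's strand and ending at the base before the start. Capitals mark matches, on either strand, to the kappaB motif bound by NF-kappaB, to TTCNNNGAA (the palindrome bound by STAT proteins) and to the interferon-stimulated response element (a pair of GAAA separated by any 2 bases).
Fas, chr1:241211905-241212154, plus strand: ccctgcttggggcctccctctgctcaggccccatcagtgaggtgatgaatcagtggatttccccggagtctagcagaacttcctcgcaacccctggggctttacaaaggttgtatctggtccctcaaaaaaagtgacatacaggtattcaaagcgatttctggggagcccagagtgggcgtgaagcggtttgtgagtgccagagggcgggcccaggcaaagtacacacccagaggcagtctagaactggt
Tnfrsf1a, chr4:159836869-159837118, plus strand: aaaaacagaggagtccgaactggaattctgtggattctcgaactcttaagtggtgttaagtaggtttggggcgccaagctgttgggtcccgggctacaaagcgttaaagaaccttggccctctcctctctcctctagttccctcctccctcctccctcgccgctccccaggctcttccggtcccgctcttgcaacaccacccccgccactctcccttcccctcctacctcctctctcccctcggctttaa
Tnfsf14, chr9:2160087-2160336, minus strand: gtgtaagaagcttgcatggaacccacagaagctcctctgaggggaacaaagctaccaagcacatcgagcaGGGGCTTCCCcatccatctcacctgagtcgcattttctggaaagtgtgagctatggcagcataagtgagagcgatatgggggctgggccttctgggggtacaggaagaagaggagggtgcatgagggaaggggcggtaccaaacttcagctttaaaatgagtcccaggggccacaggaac
Ltb, chr20:3634055-3634304, minus strand: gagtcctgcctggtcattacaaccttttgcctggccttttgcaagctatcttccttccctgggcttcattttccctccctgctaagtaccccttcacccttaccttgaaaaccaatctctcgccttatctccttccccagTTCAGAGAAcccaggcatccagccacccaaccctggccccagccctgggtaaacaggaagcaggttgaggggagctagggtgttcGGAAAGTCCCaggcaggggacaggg
Lta, chr20:3623277-3623526, plus strand: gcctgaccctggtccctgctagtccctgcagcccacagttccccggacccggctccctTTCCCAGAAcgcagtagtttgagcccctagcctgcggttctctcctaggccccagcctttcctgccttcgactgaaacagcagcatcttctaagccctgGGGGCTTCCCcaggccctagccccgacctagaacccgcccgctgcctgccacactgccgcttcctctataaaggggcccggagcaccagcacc
Tnfrsf1b, chr5:162387412-162387661, minus strand: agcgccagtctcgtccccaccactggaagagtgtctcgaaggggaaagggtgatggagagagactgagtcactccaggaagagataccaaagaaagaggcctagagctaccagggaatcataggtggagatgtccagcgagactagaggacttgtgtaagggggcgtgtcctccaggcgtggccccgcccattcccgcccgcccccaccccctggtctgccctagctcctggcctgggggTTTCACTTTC
Tnfsf10, chr2:112136689-112136938, plus strand: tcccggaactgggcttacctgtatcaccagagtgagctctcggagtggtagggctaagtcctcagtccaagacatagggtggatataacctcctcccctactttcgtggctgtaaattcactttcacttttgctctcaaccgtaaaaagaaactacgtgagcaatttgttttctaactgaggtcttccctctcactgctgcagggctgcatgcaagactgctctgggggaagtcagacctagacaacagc
A promoter stretch was found for 9 of the 10 members. The kappaB motif was matched in 3 of these 9, Ltb (beginning 25 bases before the start), Lta (93 bases) and Tnfsf14 (180 bases), beside 3.54% of 33469 rat promoters of the same length. TTCNNNGAA was matched in Ltb (110 bases) and Lta (192 bases), beside 7.67% of all promoters. The interferon-stimulated response element was matched in Tnfrsf1b (10 bases) and Tnfsf13b (20 bases), beside 3.41%. ACANNNTGT, the core of a glucocorticoid receptor site, was matched in 0 of the 9 beside 5.81%, and the GC box GGGCGG, which is not capitalised above, in 5 of the 9 beside 30.5%. Matches of different motifs may overlap, and those in capitals above do not. The strand of Tnfsf14 differs between GRCr8 and rn5, the assembly of the array's annotation. Of the members that changed, Tnfrsf1b, Tnfsf14 and Ltb held some of the capitalised motifs, and Fas, Tnfrsf1a, Tnfsf10 and Tnfsf13 held none. Lta and Tnfsf13b, which passed no test against 0 h, also held some. A match is a run of letters and says nothing of binding.

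Across the 6 time points 7 of the 10 members changed (limma's moderated F-test, FDR below 0.05), beside 55.5% of all probe sets. Tnfsf13b, Lta and Cd40 did not pass this test. Of those 7, Tnfrsf1a, Fas, Tnfsf14 and Ltb were higher after occlusion, and Tnfrsf1b, Tnfsf10 and Tnfsf13 were lower. Against 0 h, the 1 h samples had 3 members higher and 3 lower, beside 21.7% and 15.4% of all probe sets. At 2 h 4 members were higher and 3 lower, beside 21.7% and 18.6%. At 3 h 4 were higher and 2 lower, beside 27.3% and 19.2%. At 6 h 4 were higher and 3 lower, beside 22.5% and 19.3%. At 24 h 2 were higher and 3 lower, beside 17.4% and 13.9%. At some later time point 7 of the 10 were called, beside 67.3%. With so few members, these shares are a description and are not a result about the family. The median size of a member's largest change from 0 h was 0.49 on the log2 scale, and that over all probe sets was 0.24. In 7 members the largest change exceeded the highest of the 6 SDs. Centring the means moved the shares of all probe sets at 1 h to 12.6% higher and 18.8% lower, and at 24 h to 9.96% and 16.8%. Then 2 members were higher and 3 lower at 1 h, and 1 higher and 3 lower at 24 h. At 6 h centring left 2 higher and 3 lower, beside 16.9% and 21.0%. The median change of all probe sets lay between 0.04 and 0.07 at the 5 later time points.

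**Figure D1:**
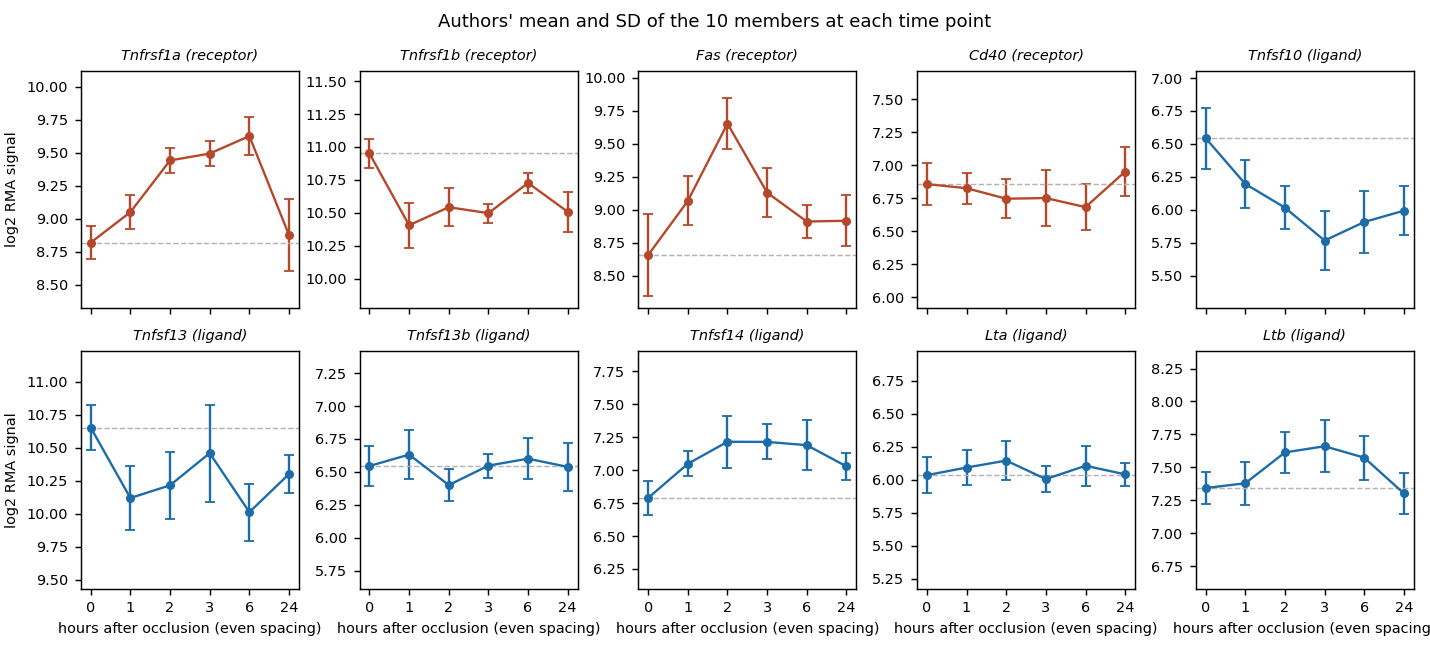
Log2 RMA signal (vertical axis, each panel spanning the same range) of the 10 members at 0, 1, 2, 3, 6 and 24 h (horizontal axis, evenly spaced, not to scale). Points are the authors' means over 8 arrays (7 at 6 h), bars the authors' SDs and the dashed line the 0 h mean; Tnfrsf1a stood at 9.63 at 6 h and 8.88 at 24 h, and Fas reached 9.65 at 2 h.

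Among the receptors, Tnfrsf1a and Tnfrsf1b, which bind the same ligands, changed in opposite directions. Tnfrsf1a is the death domain receptor through which TNF drives most of its inflammatory and cytotoxic signals (probe set 10858967, rn5 chr4:224881424-224894089, plus strand). Its signal was 8.82 ± 0.13, 9.05 ± 0.13, 9.44 ± 0.09, 9.49 ± 0.09, 9.63 ± 0.15 and 8.88 ± 0.28. The means at 2, 3 and 6 h lay well above that at 0 h, with no overlap of the SD ranges, while 24 h was close to 0 h with the widest spread. The first rise, 0.23 at 1 h, passed the test (FDR = 0.0173, limma). It was 0.62 and 0.67 at the next samplings and reached 0.81 at 6 h (95% confidence interval 0.65 to 0.97, 1.75-fold, FDR = 1.36e-11, limma). The call at 1 h was lost when the means were centred on their median (FDR = 0.0685). From 1 h to 2 h Tnfrsf1a rose by 0.39 (FDR = 0.000481, limma). At 24 h it was only 0.06 above 0 h (interval -0.10 to 0.21), after a fall of 0.75 from 6 h (FDR = 3.66e-10, limma).

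Tnfrsf1b, the TNF receptor without a death domain, which is found mainly on leukocytes, fell early and stayed low (probe set 10881424, rn5 chr5:166812970-166845910, minus strand). Signal values for Tnfrsf1b were 10.95 ± 0.11, 10.41 ± 0.17, 10.54 ± 0.14, 10.50 ± 0.07, 10.73 ± 0.08 and 10.51 ± 0.15. All later means lay below that at 0 h, the nearest being 6 h. The fall was largest at 1 h, -0.54 (interval -0.68 to -0.41, FDR = 6.07e-09, limma), and was called at every later time point. These later changes were -0.41, -0.45, -0.22 (FDR = 0.00628, limma, the weakest) and -0.44. The partial return from 3 h to 6 h, 0.23, passed the test (FDR = 0.0359, limma), as did the new fall of -0.22 from 6 h to 24 h (FDR = 0.0152).

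Fas, the receptor that starts apoptosis when it meets Fas ligand, had the largest rise of the members (probe set 10714890, rn5 chr1:259830699-259846107, plus strand). It peaked earlier than Tnfrsf1a, the other member receptor that rose. For Fas the signal was 8.66 ± 0.31, 9.07 ± 0.19, 9.65 ± 0.19, 9.13 ± 0.18, 8.91 ± 0.13 and 8.92 ± 0.19. The 2 h mean stood above all others, and its SD range did not overlap theirs. The rise was 0.41 at 1 h (FDR = 0.00128, limma) and 1.00 at 2 h (interval 0.79 to 1.20, 2.00-fold, FDR = 2.00e-11). By 3 h it was back to 0.47 (FDR = 0.000154, limma). Both steps around the peak passed the test, a rise of 0.59 from 1 h to 2 h (FDR = 5.98e-05) and a fall of 0.52 from 2 h to 3 h (FDR = 0.000625, limma). The remaining rises of 0.25 at 6 h (FDR = 0.0451) and 0.26 at 24 h (FDR = 0.0431, limma) were small. Neither held when the means were centred (FDR = 0.0848 and 0.102), in the ordinary test without moderation (FDR = 0.0534 and 0.0512) or with the variance of the 2 time points alone (FDR = 0.0817 and 0.0940).

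Cd40, the receptor on B cells and monocytes that receives help from T cells, passed no test against 0 h (probe set 10842283, rn5 chr3:167704324-167719154, plus strand). Cd40 signal was 6.86 ± 0.16, 6.83 ± 0.12, 6.75 ± 0.15, 6.75 ± 0.21, 6.68 ± 0.18 and 6.95 ± 0.18. The SD ranges of all 6 time points overlapped. The largest difference from 0 h was -0.17 at 6 h (interval -0.35 to -0.0016, unadjusted p = 0.0480, FDR = 0.0976, limma), and the other intervals lay between -0.28 and 0.26. Only the step from 6 h to 24 h was called, a rise of 0.27 (FDR = 0.0198, limma).

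Among the ligands, Tnfsf10 (TRAIL, which induces apoptosis through its death receptors) had the largest change, a fall at every time point (probe set 10814528, rn5 chr2:132726332-132742622, plus strand). The signal of Tnfsf10 was 6.54 ± 0.23, 6.20 ± 0.18, 6.02 ± 0.17, 5.77 ± 0.22, 5.91 ± 0.23 and 5.99 ± 0.19. The mean went down at each sampling to 3 h and stayed under the 0 h mean to the end. All 6 means lay below the median of all probe sets at 0 h (6.61), and no detection call was used. The mean over times, 6.07, was the lowest of the members (percentile 34.9 of all probe sets). The first changes were -0.35 (FDR = 0.00518) and -0.53, and the largest was -0.78 at 3 h (interval -0.98 to -0.58, FDR = 1.06e-08, limma). The last samples, at -0.64 and -0.55, were also called (FDR = 3.49e-05 for the latter, limma). No step between neighbouring time points from 1 h on passed the test for Tnfsf10.

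Tnfsf13 (APRIL) and Tnfsf13b (BAFF) are related ligands that myeloid cells make and that keep B cells and plasma cells alive, and they differed in their calls. Tnfsf13 fell (probe set 10744161, rn5 chr10:56032607-56035590, minus strand). Its values were 10.65 ± 0.17, 10.12 ± 0.24, 10.22 ± 0.25, 10.46 ± 0.37, 10.01 ± 0.22 and 10.30 ± 0.14. The mean was lowest at 1 h and 6 h, and the arrays at 3 h were the most spread of all members. The early changes were -0.53 (FDR = 0.000367) and -0.44 (FDR = 0.00233, limma). The largest was -0.64 at 6 h (interval -0.88 to -0.40, FDR = 2.69e-05), and -0.35 remained at 24 h (FDR = 0.0188, limma). At 3 h it was -0.19 (interval -0.43 to 0.04, FDR = 0.170, limma) and the step down from 3 h to 6 h was called (-0.45, FDR = 0.0207), a call lost with the variance of the 2 time points only (FDR = 0.102). The call at 24 h was lost after quantile normalization of the means (FDR = 0.0568).

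Tnfsf13b passed no test against 0 h (probe set 10793038, rn5 chr16:84715485-84744777, minus strand). Mean signals were 6.54 ± 0.15, 6.63 ± 0.19, 6.40 ± 0.12, 6.55 ± 0.09, 6.60 ± 0.16 and 6.54 ± 0.18. All 5 intervals of its change from 0 h lay between -0.30 and 0.24. The step from 1 h to 2 h was just called (-0.23, FDR = 0.0443, limma). That call was lost with the variance of the 2 time points only (FDR = 0.0617), after centring (FDR = 0.0729) and after quantile normalization (FDR = 0.0728). The difference between the changes of Tnfsf13 and Tnfsf13b was not itself tested.

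Tnfsf14 (LIGHT), a ligand that binds Ltbr and Tnfrsf14 and stimulates T cells, rose at every time point (probe set 10931712, rn5 chr9:8768708-8772373, plus strand). It measured 6.79 ± 0.13, 7.05 ± 0.09, 7.21 ± 0.20, 7.21 ± 0.13, 7.19 ± 0.19 and 7.03 ± 0.10. The means at 2, 3 and 6 h were nearly level. The 5 rises were 0.26 (FDR = 0.00461), 0.43 (interval 0.28 to 0.57, 1.34-fold, FDR = 4.91e-06), 0.42, 0.40 and 0.24 (FDR = 0.0105, limma). No step between neighbouring time points from 1 h on was called.

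Ltb and Lta are the subunits of lymphotoxin, and lie on both sides of Tnf on chromosome 20, Ltb anchoring the complex in the membrane. Ltb rose from 2 h to 6 h (probe set 10831158, rn5 chr20:6941753-6943598, minus strand). Its means were 7.34 ± 0.12, 7.38 ± 0.16, 7.61 ± 0.15, 7.66 ± 0.20, 7.57 ± 0.17 and 7.30 ± 0.16. The means at 1 h and 24 h were those nearest to 0 h. The called changes were 0.27 (FDR = 0.00563), 0.32 (interval 0.16 to 0.48, FDR = 0.00113) and 0.23 (FDR = 0.0218, limma), the last of which was not called when the means were centred (FDR = 0.0506). From 6 h to 24 h Ltb fell by 0.27 (FDR = 0.0141, limma).

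Lta, which also forms a soluble trimer that binds both TNF receptors, passed no test at any time point (probe set 10828016, rn5 chr20:6933071-6935077, plus strand). Its signals were 6.04 ± 0.14, 6.09 ± 0.13, 6.15 ± 0.15, 6.01 ± 0.10, 6.11 ± 0.15 and 6.04 ± 0.09. The intervals of its 5 changes from 0 h lay between -0.16 and 0.24, and the SD ranges of all time points overlapped. No detection call was used here.

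**Figure D2:**
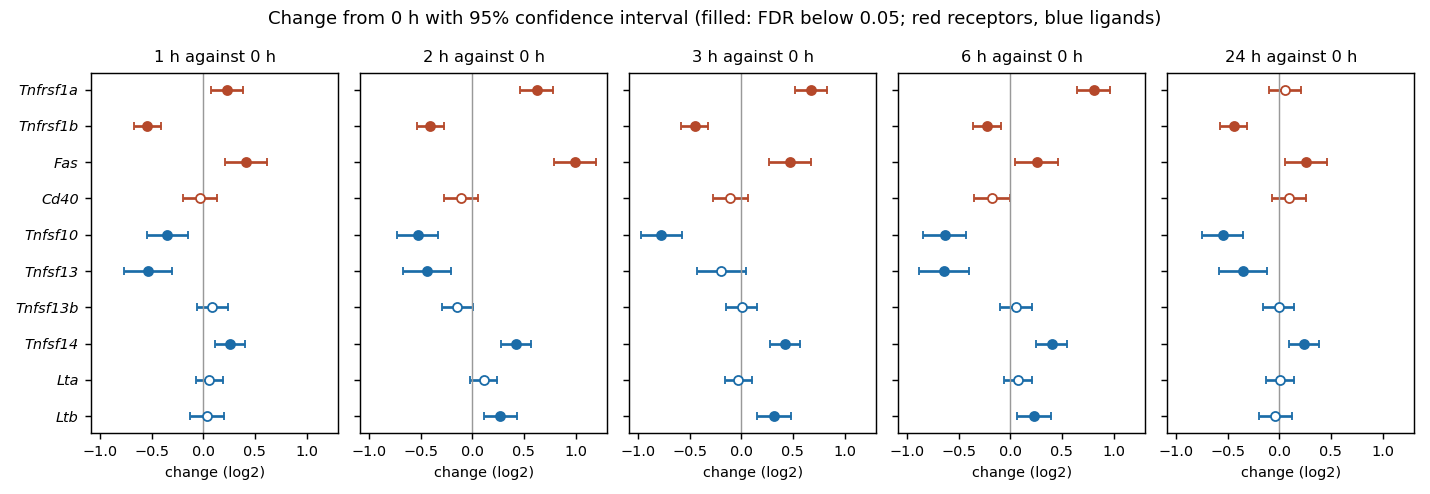
Change of each member from 0 h on the log2 scale (horizontal axis) at each later time point (5 panels), with its 95% confidence interval; filled points have an FDR below 0.05 (limma), red points are receptors and blue points ligands. At 24 h Tnfrsf1a (0.06) had returned to the line at 0, while Tnfsf10 (-0.55) and Tnfrsf1b (-0.44) remained below it.

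The members also differed in when they moved. Between 1 h and 2 h 3 of the 10 changed, Tnfrsf1a and Fas upward and Tnfsf13b downward, beside 8.78% of all probe sets in either direction. Reperfusion and the renewed anesthesia fell between these samplings, and their part was not tested. The downward call, as said above, did not hold under 3 alternatives. Ltb rose by 0.23 between these samplings without a call (FDR = 0.0552, limma), and was called after centring (FDR = 0.0349), after quantile normalization (FDR = 0.0288) and without the dimmest probe sets (FDR = 0.0446). From 2 h to 3 h 1 member, Fas, changed, beside 3.53%. From 3 h to 6 h Tnfrsf1b and Tnfsf13 changed, beside 4.78%. From 6 h to 24 h 4 members changed, Tnfrsf1a, Tnfrsf1b and Ltb downward and Cd40 upward, beside 18.9%. Comparing 24 h with 2 h, Tnfrsf1a (-0.57), Fas (-0.74) and Ltb (-0.31) were lower, 3 members beside 16.2% of all probe sets. These comparisons share arrays with each other and with those against 0 h. Of the largest change of the 7 members that passed the F-test, 7.02% was left at 24 h in Tnfrsf1a, 26.1% in Fas, 55.0% in Tnfsf13, 56.2% in Tnfsf14, 70.8% in Tnfsf10, 81.4% in Tnfrsf1b and -13.0% in Ltb, which was -0.04 against 0 h then.

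The ligands that pair with the members were followed in a list of the rest of the family, of which 10 of 12 ligands were measured. Of these, 5 changed against 0 h at some time point, beside 67.3% of all probe sets. At 1, 2, 3, 6 and 24 h, 0, 1, 1, 1 and 0 of the 10 were higher, beside 21.7%, 21.7%, 27.3%, 22.5% and 17.4% of all probe sets. In the same order 1, 2, 3, 3 and 4 were lower, beside 15.4%, 18.6%, 19.2%, 19.3% and 13.9%. The lower counts depended on scaling, with 2 at 1 h and 4 at 3 h after centring, beside 18.8% and 21.4% of all probe sets. After quantile normalization they were 4 at 2 h, 4 at 3 h and 2 at 6 h, beside 17.5%, 17.8% and 17.6%. Under quantile normalization 7 of the 10 changed at some time point. The median change of the list at 6 h was -0.01, beside 0.05 over all probe sets. The only ligand of this list called higher was Tnf, the main ligand of both TNF receptors. The changes of Tnf were 0.04, 1.40, 1.11, 1.53 (2.90-fold, FDR = 7.05e-09, limma) and 0.30, of which the first and the last did not pass the test. Tnf and Tnfrsf1a were thus both called higher at 2, 3 and 6 h and not at 24 h. From 6 h to 24 h Tnf fell by 1.24, a called step.

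Faslg, the ligand of Fas, and Cd40lg, the ligand of Cd40 on activated T cells, were lower. The changes of Faslg were 0.16 and -0.31, neither of which was called, and then -0.63, -0.51 and -0.74 (FDR = 0.000306, limma). Fas and its ligand were called in opposite directions at 3 h. They also were at 6 and 24 h, where the small rises of Fas did not hold under 3 alternatives and the fall of Faslg at 6 h was lost after quantile normalization (FDR = 0.0596). The changes of Cd40lg were -0.04, which was not called, -0.79, -0.83, -0.89 (FDR = 4.13e-05, limma) and -0.64, whereas Cd40 was not called at these times. Tnfsf15, a ligand that stimulates T cells, fell at all 5 time points, most at 3 h (-0.46, FDR = 1.68e-08, limma), although the call at 1 h was lost after quantile normalization (FDR = 0.101). Tnfsf18, the ligand of Tnfrsf18 (GITR), fell at 24 h (-0.18, FDR = 0.0459, limma), a call lost with the variance of the 2 time points only (FDR = 0.0952). All means of Tnfsf18 lay below the 0 h median of all probe sets (6.61).

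**Figure D3:**
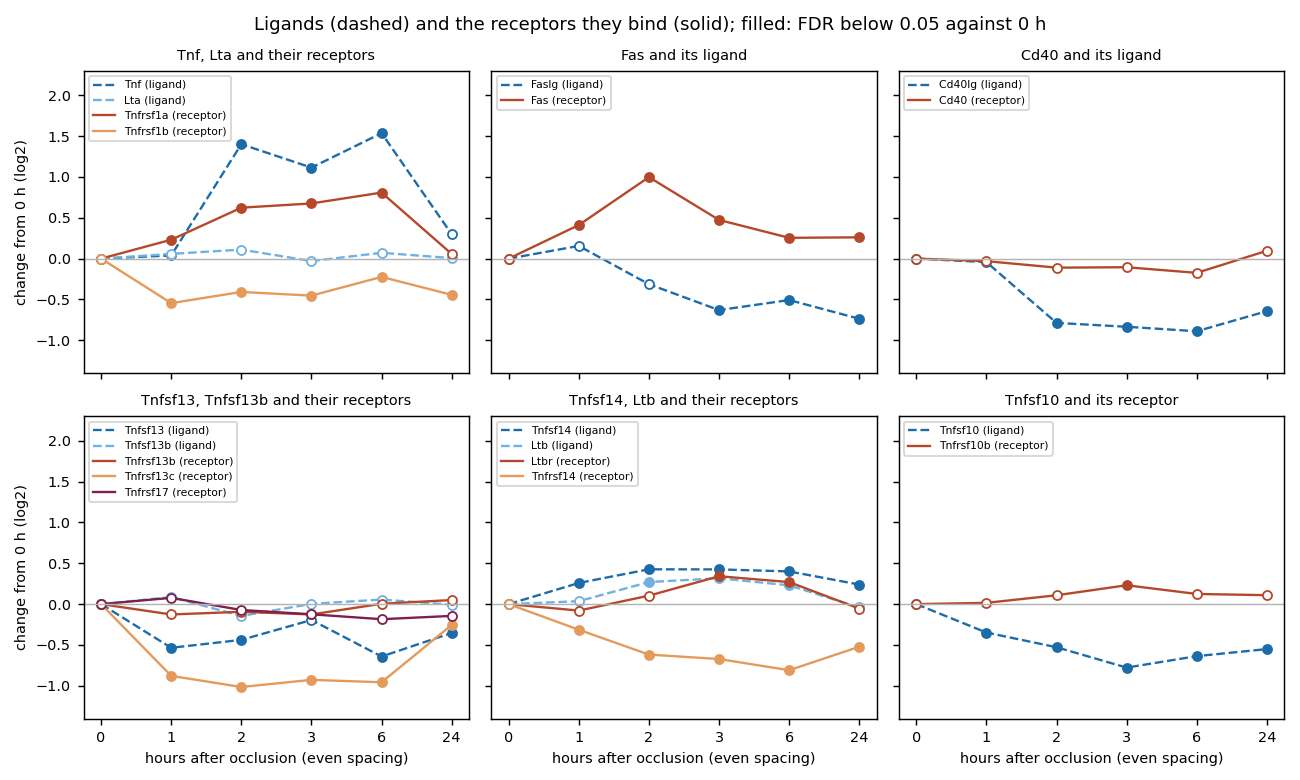
Change from 0 h on the log2 scale (vertical axis) over time (horizontal axis, evenly spaced) of ligands (dashed) and the receptors they bind (solid), in 6 groups; filled points have an FDR below 0.05 (limma). At 6 h Tnf (1.53) and Tnfrsf1a (0.81) were higher and Tnfrsf1b (-0.22) lower, and at 3 h Fas was higher (0.47) and Faslg lower (-0.63).

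All 22 other receptors of the family on the list were measured, and 14 changed against 0 h at some time point, beside 67.3% of all probe sets. At each of the first 4 samplings after occlusion 7 of the 22 were higher, beside 21.7% to 27.3% of all probe sets, and 3 were lower, beside 15.4% to 19.3%. By 24 h 3 were higher and 3 lower, beside 17.4% and 13.9%. The counts depended on scaling. At 2 h 3 were higher after centring and 5 after quantile normalization, beside 16.1% and 18.2% of all probe sets. At 1 h these higher counts were 5 and 4, beside 12.6% and 15.0%. After quantile normalization 1 was lower at 1 h, 5 were lower at 6 h and 5 higher at 24 h, beside 13.9%, 17.6% and 12.5%. None of these shares was tested against that of all probe sets. The median change of the list was 0.09 at 3 h, beside 0.07 over all probe sets. The receptors called lower were Cd27, Tnfrsf13c and Tnfrsf14 at every time point, except that quantile normalization ended the 1 h calls of Cd27 (FDR = 0.0897) and Tnfrsf14 (FDR = 0.0845) and the 24 h call of Tnfrsf13c (FDR = 0.122). Cd27, a receptor of T and memory B cells, fell by 1.15 at 6 h (FDR = 5.46e-12, limma). Tnfrsf13c, the BAFF receptor of B cells, fell by 1.01 at 2 h (FDR = 1.62e-15) and was -0.26 at 24 h, while the other receptors of Tnfsf13 and Tnfsf13b were not called at any time. Tnfrsf13b passed the F-test over all time points (FDR = 0.0346), and those 2 were called lower against 0 h only after rescaling, Tnfrsf13b at 1 and 3 h after centring (FDR = 0.0239 and 0.0277) and Tnfrsf17 at 6 h after quantile normalization (FDR = 0.0424). Tnfrsf14 (HVEM), a receptor of Tnfsf14 and Lta, fell by 0.81 at 6 h (FDR = 1.17e-08, limma).

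Of the receptors on this list that rose, Tnfrsf21 (death receptor 6) had the largest change, 0.72 at 2 h (FDR = 2.92e-07, limma). It was higher at all 5 time points and measured 0.34 at 24 h. Ltbr, the lymphotoxin beta receptor of myeloid and stromal cells, binds the Ltb complex and Tnfsf14, and its changes were -0.08, 0.10, 0.34, 0.27 and -0.05, with calls at 3 h (FDR = 4.48e-05) and 6 h. Edar, the ectodysplasin receptor, rose by 0.30 at 2 h (FDR = 6.80e-05), and Tnfrsf9 (4-1BB, a costimulator of T cells) by 0.25 at 3 h (FDR = 0.00130, limma). All means of Edar (6.01 to 6.31) and Tnfrsf9 (5.64 to 5.89) lay below the 0 h median of all probe sets (6.61). Quantile normalization ended the calls of Tnfrsf9 at 1, 2 and 6 h (FDR = 0.0691, 0.121 and 0.0713). Tnfrsf10b, the receptor of Tnfsf10, was called higher at 3 h only (0.23), the time at which Tnfsf10 was lowest, and that call was lost after quantile normalization (FDR = 0.0509). The means of Tnfrsf10b too lay below that median.

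Downstream of the receptors, 38 of 41 listed signalling genes were measured, and 29 changed against 0 h at some time point, beside 67.3% of all probe sets. At the 5 later time points, in order, 3, 13, 15, 16 and 2 of the 38 were higher, beside 21.7%, 21.7%, 27.3%, 22.5% and 17.4% of all probe sets. In the same order 11, 7, 7, 8 and 8 were lower, beside 15.4%, 18.6%, 19.2%, 19.3% and 13.9%. These shares too were not tested. The list's median change was -0.01 at 1 h and -0.06 at 24 h, beside 0.05 and 0.04 over all probe sets. Birc3, Ripk3 and Tnip2 were called higher at 2, 3 and 6 h. Birc3 (cIAP2), a ubiquitin ligase that binds TRAF2, was -0.52 at 1 h (FDR = 0.000379) and 1.14 at 3 h (2.20-fold, FDR = 2.03e-11, limma). Ripk3, the necroptosis kinase, rose by 0.85 at 2 h (FDR = 2.60e-10), and Tnip2, which binds A20 and restrains NF-kappaB, by 0.68 at 3 h (FDR = 3.39e-10, limma). Adam17, the protease that sheds TNF and both TNF receptors from the cell surface, changed by -0.39 at both 1 h and 2 h, and by 0.73 at 6 h (FDR = 2.45e-09, limma).

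Besides Birc3 at 1 h, the largest falls of the list were those of Traf3, Chuk and Nfkb1. Traf3, an adaptor that restrains the alternative NF-kappaB pathway, fell by 0.70 at 2 h (FDR = 2.96e-10), and Chuk (IKK alpha) by 0.54 at 2 h (FDR = 5.15e-06, limma). Nfkb1, the p105 precursor of NF-kappaB, fell by 0.46 at 6 h (FDR = 7.22e-08, limma), and was called lower at all 5 time points. The balance at 24 h depended on scaling, with 2 genes higher and 12 lower after centring, beside 9.96% and 16.8% of all probe sets. After quantile normalization 3 were higher and 4 lower at 24 h, beside 12.5% and 11.4%. At 2 h the higher count was 10 after centring and 18 after quantile normalization, beside 16.1% and 18.2%. At 6 h the lower count was 8 after centring and 5 after quantile normalization, beside 21.0% and 17.6%.

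**Figure D4:**
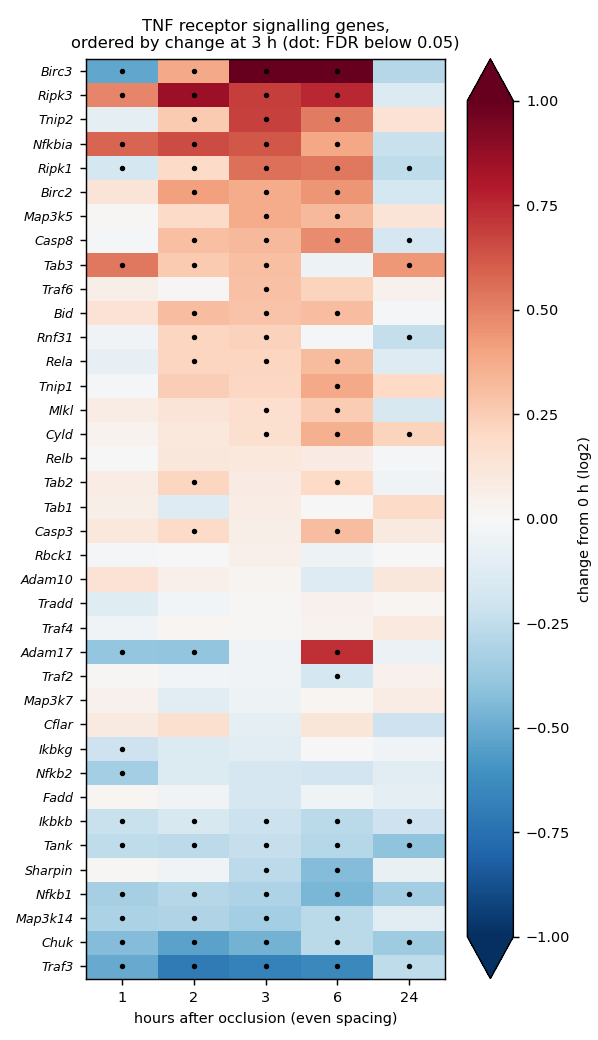
Heat map of the change from 0 h (colour, log2 scale, capped at a size of 1) of the 38 measured TNF receptor signalling genes (rows, ordered by change at 3 h) at 1, 2, 3, 6 and 24 h (columns); a dot marks an FDR below 0.05 (limma). Birc3 (1.14 at 3 h) heads the map and Traf3 (-0.68 at 3 h) ends it, and 16 genes were called higher and 8 lower at 6 h.

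Markers of blood cell types moved at the same time points. All 10 B cell, 10 T cell, 7 NK cell, 10 neutrophil, 5 platelet and 6 erythroid markers that were measured, and 8 of 9 monocyte markers, lay above the median of all probe sets at 0 h (6.61). The neutrophil list was higher, with 10 of 10 genes called at 1, 2, 3 and 6 h and 8 at 24 h, and a median change of 1.28, 1.66, 1.40, 1.82 and 0.80. B cell genes were lower, 9 or 10 of 10 called at each time point, with a median of -1.50, -2.04, -2.13, -1.76 and -0.63. T cell genes had a median of -0.45, -0.96, -0.99, -1.11 and -0.75, and NK cell genes of -0.16, -0.58, -0.79, -0.81 and -0.86. The monocyte list was mixed, with 4 of 9 higher and 4 lower at 3 h, and the platelet and erythroid medians lay between -0.13 and 0.26. Tnf and Tnfrsf1a were called higher at 2, 3 and 6 h, when the neutrophil list was highest. At 1 h, with 10 of 10 neutrophil genes called higher, Tnf was 0.04 and not called. Tnfrsf1a was 0.23 then, a call lost after centring. At 24 h, with 8 neutrophil genes still called higher, neither Tnf nor Tnfrsf1a was called. Cd27 and Tnfrsf13c, and from 2 h Cd40lg, were lower with the B and T cell lists. Tnfrsf1b was lower at every time point, as the B, T and NK cell medians were, while the neutrophil list was higher. The time courses differed. Tnfrsf1b fell most at 1 h (-0.54), when the T and NK cell medians were least changed. It fell least at 6 h (-0.22), when the T cell median was lowest. Cd40 was not called while the B cell list was lower. Cd40lg was -0.04 at 1 h and not called. At that time 8 of the 10 T cell genes were called lower and 1 higher (median -0.45, range -0.65 to 0.36). The part of these lists in the results on the family was not tested. In whole blood, fewer cells of a type and less RNA per cell cannot be told apart.

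**Figure D5:**
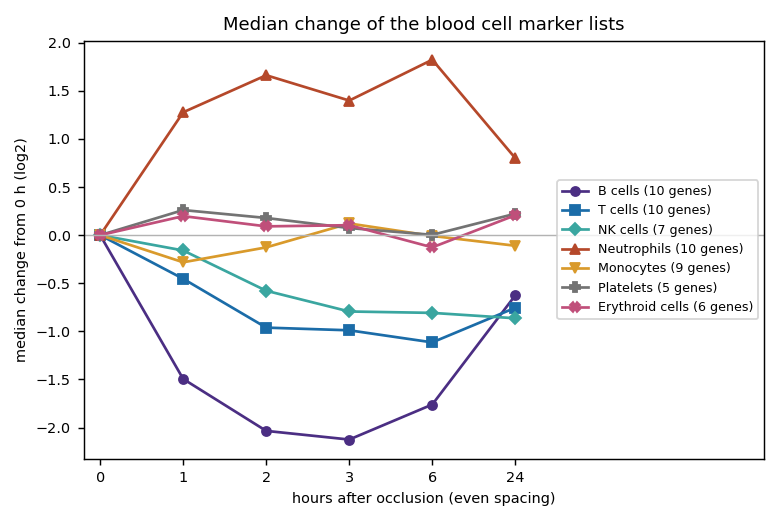
Median change from 0 h (vertical axis, log2 scale) of the measured genes of 7 blood cell marker lists over time (horizontal axis, evenly spaced). The neutrophil list peaked at 1.82 at 6 h, and the B cell list was lowest at -2.13 at 3 h.

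Members that are neighbours in the genome did not all change together. On rn5, Lta ends 1151 bases from Tnf, and Tnf 2905 bases from Ltb. Tnf changed by 1.40 at 2 h, Ltb by 0.27 and Lta by 0.11, the last not called. Tnfsf13 lies 827 bases from Tnfsf12, a ligand (TWEAK) that passed no test against 0 h and changed by 0.00 at 6 h when Tnfsf13 changed by -0.64. On chromosome 4, Cd27, Ltbr and Tnfrsf1a follow each other with gaps of 72996 and 35139 bases, and their changes at 6 h were -1.15, 0.27 and 0.81.

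The genes whose 5 changes from 0 h were most like those of a member were sought among 12618 probe sets that had a symbol and passed the F-test. The Euclidean distance on the log2 scale was smallest for Eif3d with Tnfsf10 (0.107), Atp6v1g1 with Tnfrsf1a (0.106), Srsf9 with Tnfrsf1b (0.119), Map4k2 with Fas (0.204), Cbr4 with Tnfsf13 (0.171), Med4 with Ltb (0.0895) and Aox4, the second nearest, with Tnfsf14 (0.0549). The nearest probe set to Tnfsf14 carried 2 symbols, Slpil2 and LOC103694893 (0.0432). Of these 7 members Fas was the farthest from its nearest gene. These distances rest on 6 means and are given as a description.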

How the data were processed

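Per the file headers, the authors summarized RatGene 1.0 ST arrays of whole blood RNA with RMA and deposited log2 values for 27596 probe sets, annotated on rn5. The authors' means and SDs of the log2 values over the arrays of each of 6 time points were used. A further 47 columns of single arrays carry numbers that match no sample's labels, and were not used. The deposited columns of the authors' own comparisons (fold changes, p-values, FDRs and F-tests) were not used either. The study worked up RNA in batches, which were not analysed here.

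From the means, SDs and array numbers (8, and 7 at 6 h), limma 3.58.1 in R 4.3.3 gave moderated tests. The variance was pooled over time points (41 residual degrees of freedom) and moderated with 5.71 prior degrees of freedom. Tests were two-sided, with Benjamini-Hochberg adjustment over all probe sets and an FDR threshold of 0.05. The test takes arrays as independent, although the same 8 rats were sampled repeatedly, and the number of arrays limits the precision. The fit was tested on simulated data. The members, the gene lists and the tests were chosen with earlier results of these data known. Genes named besides the members were the 4 largest called rises and falls of each family list, the ligands and Ltbr that pair with members, their partners in the genome, and the nearest profiles. A gene with several probe sets was read from the one with the highest mean. Partner receptors and genome neighbours were named after their values were seen. Alternatives were the ordinary test, an intensity trend with a robust prior, the variance of the compared time points only, centring, quantile normalization, leaving out the dimmest 25% of probe sets, Bonferroni adjustment and the F-test without the 24 h samples.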

Additional observations from a re-analysis of the deposited data

How the results depend on the processing

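No paired analysis was possible because the means and SDs used carry no rat, and the numbers of the single-array columns match no sample's labels. Those columns might hold the rats in order, but order was not taken as evidence, so a fit with the rat as a replicate block was not made. For the same reason no array was left out and no batch was tried. Since each member had 1 probe set, averaging probe sets could not alter a member. Of the 50 changes of members from 0 h, 31 were called. Of these, 26 stayed called under every alternative but the Bonferroni adjustment, and 0 called changes reversed. Leaving out the dimmest 25% of probe sets, or using an intensity trend with a robust prior, changed no call of a member against 0 h, and the F-test without the 24 h samples called 7 members as before.

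The Bonferroni adjustment left 1, 4, 2 and 2 members called at 1, 2, 6 and 24 h. It left 1 from 1 h to 2 h, 0 from 2 h to 3 h, 0 from 3 h to 6 h and 1 from 6 h to 24 h. Of the lists it left 2 other ligands, 4 other receptors and 11 signalling genes. The shares of all probe sets given above are for the FDR threshold and do not apply to these Bonferroni counts. With the variance of the 2 time points only, 1 member was called from 3 h to 6 h, Tnfsf13 having lost its call. At an F-test p below 5e-07, the threshold of the study and chosen after seeing the data, 4 members were called. No share of all probe sets at that threshold was set beside this count, which is a description. The sign of some small uncalled changes depended on the scaling. After centring, Tnfsf13b at 3 h was -0.0351, Lta at 24 h -0.0351 and Ltb at 1 h -0.0130. After quantile normalization, Tnfsf13b at 3 h was -0.0496, and the 1, 6 and 24 h changes of Lta were -0.0182, -0.0048 and -0.0578. Arrays were not assessed for their signal above background.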
